A study of Mus musculus with 17 samples.

Results

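The mitochondrial ribosomal protein genes, whose symbols begin with Mrpl for the large subunit and Mrps for the small subunit, were read in mouse whole blood after total-body X-irradiation. The genes were chosen by symbol: 156 probe sets that the platform annotation gave to 1 gene each named 76 Mrp genes (47 Mrpl and 29 Mrps), and each gene was read from its brightest probe set, by the mean of all 17 arrays. Of these 76 genes, 74 passed a filter on dim probe sets and were tested, among 12696 tested genes of 18193 on the array. Mrpl1 and Mrps27 did not pass and were not tested.

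Mitochondrial ribosomes translate the few messenger RNAs of the mitochondrial genome, which encode core subunits of the respiratory chain and of ATP synthase. Their ribosomal RNAs come from the mitochondrial genome, whereas every ribosomal protein is encoded in the nucleus, made in the cytosol and imported. Some of these proteins have counterparts in bacterial ribosomes and others occur only in mitochondrial ribosomes. In blood, leukocytes, platelets and reticulocytes carry mitochondria, and mature red cells do not.

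The mice were females of the inbred strain C57BL/6JJcl, 8 weeks of age, killed 24 h after a single exposure of the whole body. Controls received 0 Gy (5 mice), and 4 mice each received 0.5, 1.0 or 3.0 Gy, with no genetic change or other agent in any group. Blood was taken into a stabilising tube, and 200 ng of total RNA per mouse was labelled and hybridised to 1 Affymetrix array, with 1 value per probe set on a log2 scale. A difference of 1 on that scale is a 2-fold difference. The labels call the arrays of a group biological replicates.

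The arrays carried markers of blood cells, though not every marker read was bright. The probe set used for the globin gene Hba-a1 had a control mean of 2.78, where the array median averaged 3.51. In controls the mean log2 level was 13.9 for Alas2, the erythroid enzyme of heme synthesis, 12.0 for the neutrophil protein S100a8, 12.3 for the platelet chemokine Pf4 and 7.87 for Cd79a of the B cell receptor. The mean level of 12 B cell markers ranged from 7.27 to 7.96 over the control arrays, from 6.79 to 7.62 at 0.5 Gy, from 6.88 to 7.57 at 1.0 Gy and from 4.54 to 5.87 at 3.0 Gy. The mean of 16 platelet markers ranged from 8.77 to 9.33 in controls and from 10.21 to 10.43, 10.63 to 10.96 and 10.47 to 11.21 at the 3 doses in rising order. The level of 18S ribosomal RNA on its control probe sets was 10.5 ± 0.49 (SD, n = 5) in controls, 12.7 ± 0.77 (n = 4) at 0.5 Gy, 13.3 ± 0.28 (n = 4) at 1.0 Gy and 10.7 ± 0.14 (n = 4) at 3.0 Gy. Exact two-sided permutation tests of the 18S level against controls gave p = 0.00794 at 0.5 Gy, p = 0.00794 at 1.0 Gy, which is the smallest value that 126 regroupings can give, and p = 0.587 at 3.0 Gy.

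Of the 74 Mrp genes, 21, 28 and 55 were lower than in controls after 0.5, 1.0 and 3.0 Gy, and 15 were called at no dose. On the mean over the 74 genes, the 5 control arrays stood at 5.94, 5.58, 5.80, 6.09 and 5.83. The arrays stood at 5.37, 5.64, 5.41 and 5.48 after 0.5 Gy, at 5.55, 5.56, 5.36 and 5.44 after 1.0 Gy, and at 5.14, 5.28, 5.18 and 4.96 after 3.0 Gy. The 1.0 and 3.0 Gy arrays all lay below every control, while 1 array at 0.5 Gy lay above the lowest control. In a whole-blood sample, fewer cells of a type and less RNA per cell cannot be told apart.

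**Figure D1:**
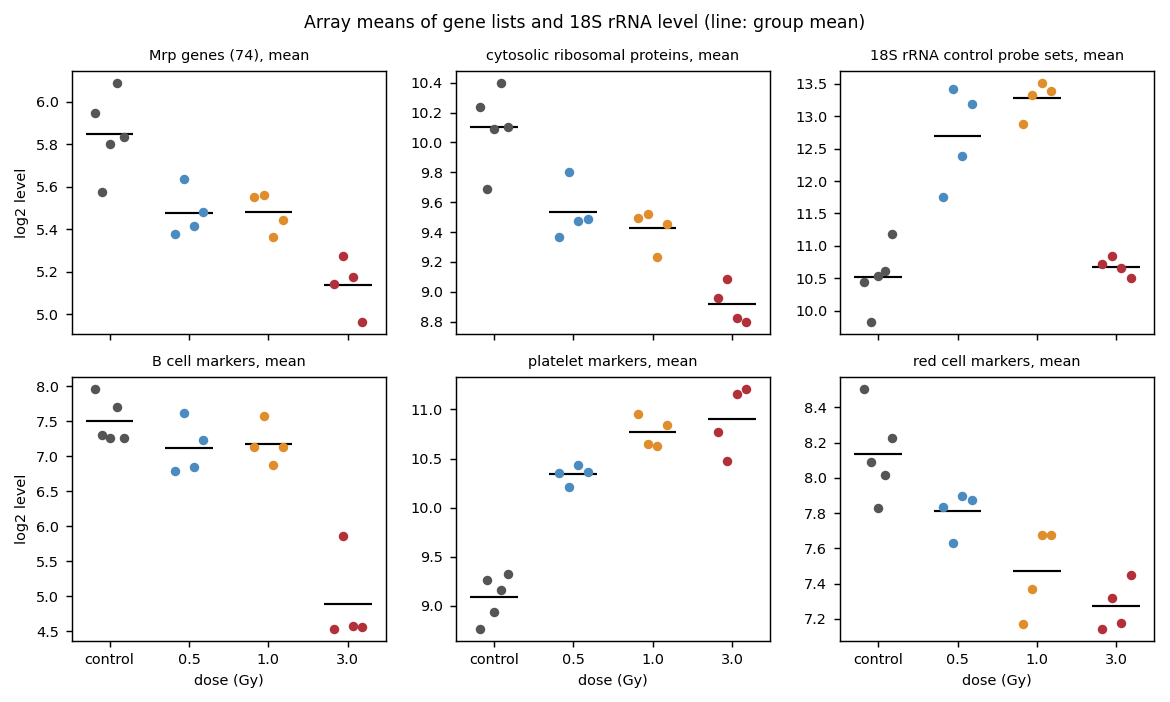
Mean log2 level per array (vertical axis) against dose in Gy, for the 74 Mrp genes, the cytosolic ribosomal protein genes, the 18S ribosomal RNA control probe sets and the markers of B cells, platelets and red cells. Each point is 1 mouse and each line a group mean. The Mrp mean went from 5.85 in controls to 5.48, 5.48 and 5.14, whereas 18S RNA was high at 0.5 and 1.0 Gy only and the B cell markers were low mainly at 3.0 Gy.

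After 0.5 Gy, 21 of the 74 genes were lower and 0 higher than in controls, by limma with an adjusted p under 0.05 over all tested genes, called here a change. Over all tested genes 5.0% were lower and 5.24% higher. The median log2 change of the Mrp genes was -0.35, against -0.02 for all tested genes. In 15 Mrp genes all 4 irradiated arrays lay below all 5 controls, a pattern that 4.54% of all tested genes showed. Of the 74 genes, 45 had an unadjusted p under 0.05, a count for which no share of all tested genes is given here.

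After 1.0 Gy, 28 of 74 genes were lower and 0 higher, where 8.49% of all tested genes were lower and 8.80% higher. The median change was -0.39 for the Mrp genes and -0.04 for all tested genes. The 4 arrays lay below all controls in 17 Mrp genes, as in 6.38% of all tested genes. Of the 74 genes, 43 had an unadjusted p under 0.05, again without a share of all tested genes beside it.

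After 3.0 Gy, 55 of 74 genes were lower and 0 higher, where 29.2% of all tested genes were lower and 20.0% higher. Repeating quantile normalization on the deposited values changed the split of all tested genes to 26.2% lower and 29.1% higher. The median change was -0.72 for the Mrp genes and 0.04 for all tested genes. The 4 arrays lay below all controls in 46 Mrp genes, as in 22.9% of all tested genes. An unadjusted p under 0.05 was found for 60 Mrp genes, also without a share of all tested genes beside it. A limma F test for a change at any dose called 57 of the 74 genes, where it called 48.2% of all tested genes.

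**Figure D2:**
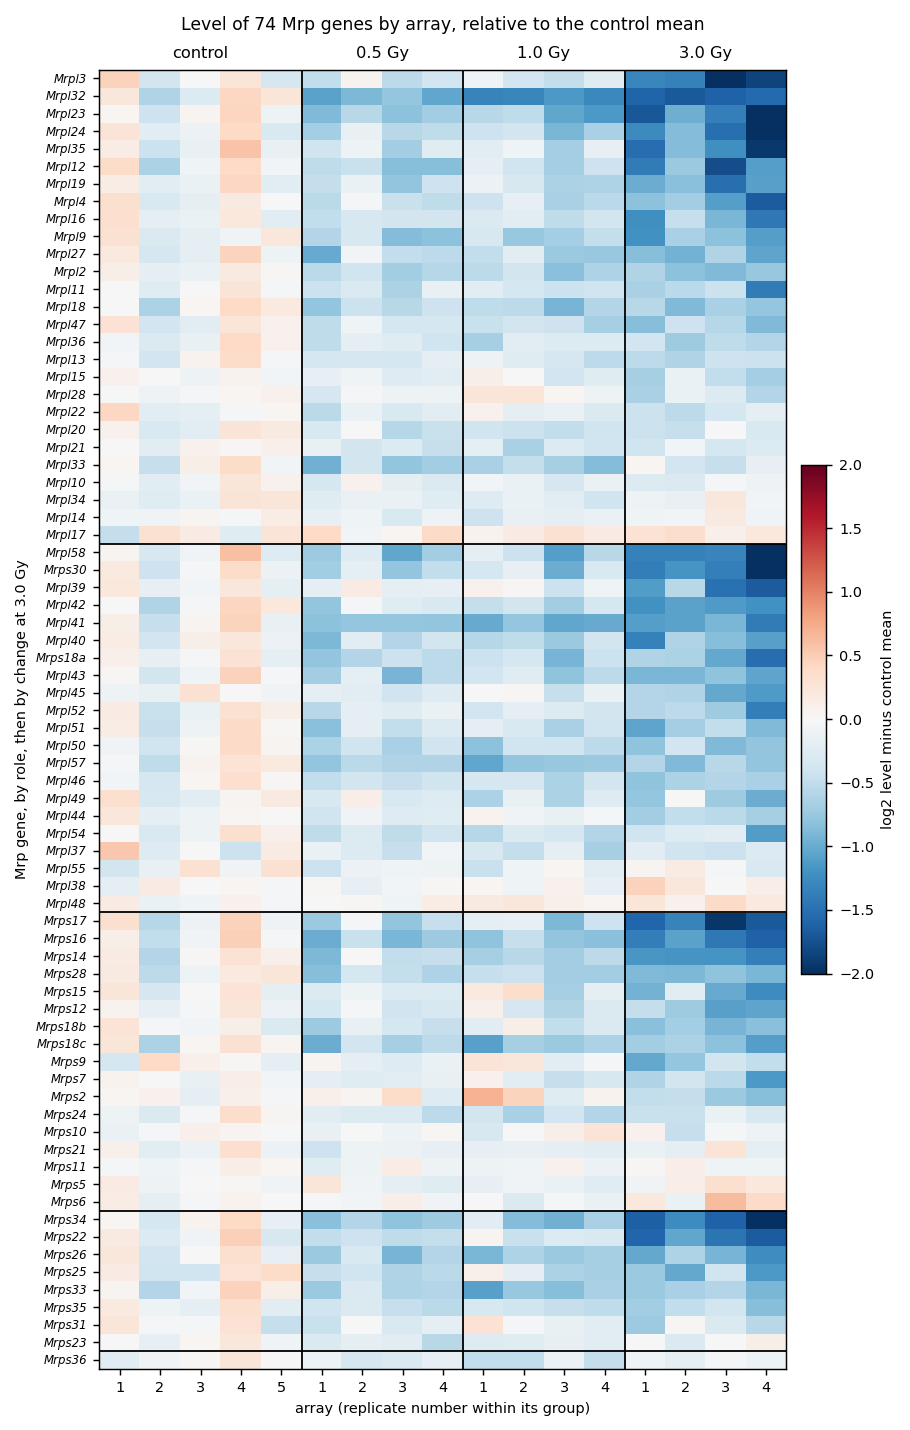
Log2 level of each of the 74 tested Mrp genes (rows) in each of the 17 arrays (columns, numbered by replicate within a group), minus the mean of that gene in controls; blue is lower and red higher, and the colour scale ends at -2 and 2. Black horizontal lines part the large-subunit proteins with bacterial counterparts, the mitochondria-specific large-subunit proteins, the small-subunit proteins with bacterial counterparts, the mitochondria-specific small-subunit proteins and Mrps36. Most rows are blue at 3.0 Gy, and the rows at the foot of each block, which are ordered by the change at 3.0 Gy, are pale at that dose.

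These 3 comparisons share their 5 control arrays. A total of 19 genes were lower at all 3 doses: Mrpl2, Mrpl9, Mrpl18, Mrpl23, Mrpl32, Mrpl40, Mrpl41, Mrpl43, Mrpl46, Mrpl50, Mrpl57, Mrps16, Mrps18a, Mrps18c, Mrps26, Mrps28, Mrps33, Mrps34 and Mrps35. Another 30 were called lower at 3.0 Gy alone, 5 at 1.0 and 3.0 Gy, 3 at 1.0 Gy alone, 1 (Mrpl12) at 0.5 and 3.0 Gy and 1 (Mrpl33) at 0.5 and 1.0 Gy. The remaining 15 were not called at any dose. Shares of all tested genes with these patterns were not counted, so the split describes the members only and is not a trait of them.

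The calls at the lower doses were less stable when an array was left out. Of the 21 genes lower at 0.5 Gy, 7 (Mrpl2, Mrpl32, Mrpl33, Mrpl41, Mrpl57, Mrps16 and Mrps34) kept the call whichever of the 17 arrays was left out. The count at 0.5 Gy was 8 without 0.5 Gy replicate 3, 9 without 0.5 Gy replicate 1, 10 without control replicate 4 and 32 without control replicate 2. The share of all tested genes called lower moved with it, to 2.24%, 2.16%, 2.64% and 7.31% in the same order. At 1.0 Gy, 15 of 28 genes kept the call whichever array was left out, and at 3.0 Gy 52 of 55 did. The 3 that did not at 3.0 Gy were Mrpl22, Mrpl54 and Mrps24. The call of Mrpl22 was lost without control replicate 1, 3.0 Gy replicate 1 or 3.0 Gy replicate 2 (adjusted p up to 0.0763), and that of Mrpl54 without 3.0 Gy replicate 4 (adjusted p = 0.0818). The call of Mrps24 was lost without control replicate 4, control replicate 5 or 3.0 Gy replicate 1, 2 or 4 (adjusted p up to 0.0936).

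The 18S level moved with the 2 lower doses. Its lowest value was 11.8 at 0.5 Gy and 12.9 at 1.0 Gy, where the highest control stood at 11.2. Because these doses did not overlap the controls, a fit that held the 18S level as a covariate cannot part it from dose. Its part in the result was not tested otherwise. In that fit 11 of the 21 calls at 0.5 Gy, 12 of the 28 at 1.0 Gy and 55 of the 55 at 3.0 Gy were kept. The share of all tested genes called lower moved likewise at the lower doses, to 2.56% at 0.5 Gy and 2.53% at 1.0 Gy, and was 29.3% at 3.0 Gy. The median changes of the Mrp genes were then -0.71, -0.74 and -0.77.

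**Figure D3:**
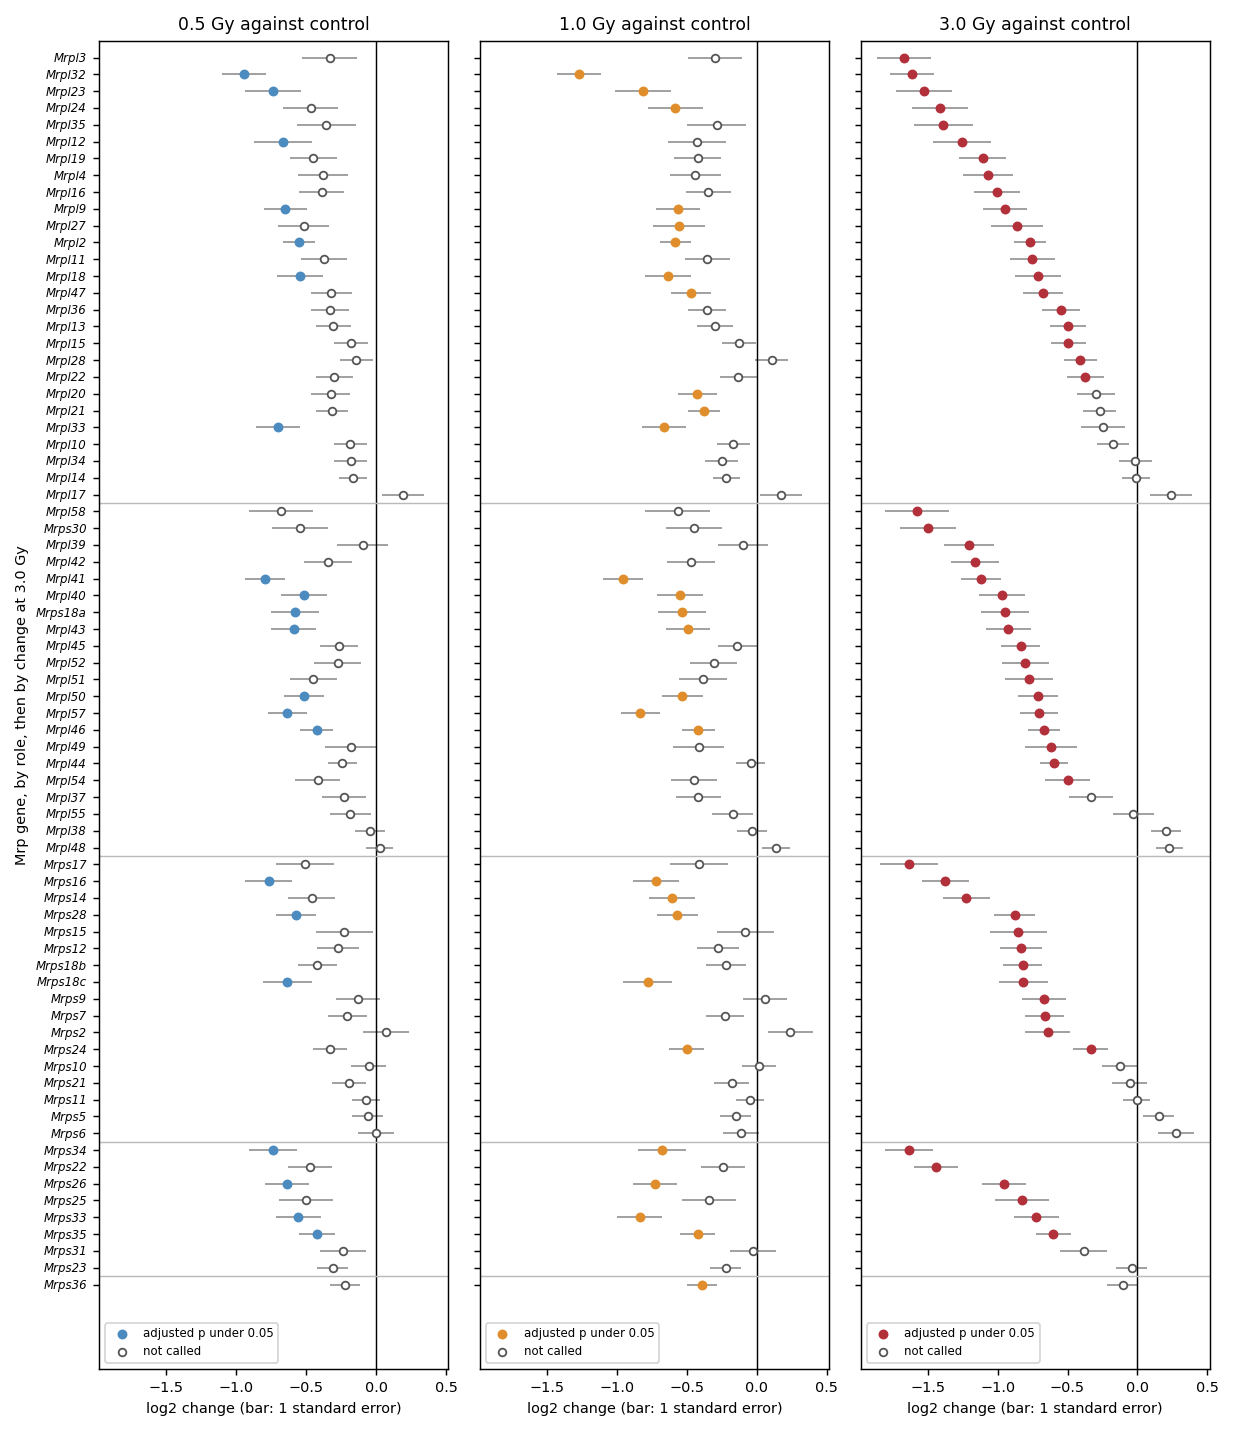
Log2 change against control of each of the 74 Mrp genes (rows, in the same order as the heat map) at 0.5, 1.0 and 3.0 Gy; points are limma estimates, bars 1 standard error, and filled points genes with an adjusted p under 0.05. The filled points number 21, 28 and 55, all to the left of 0, and the estimates reach -0.95, -1.27 and -1.67.

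Among large-subunit proteins with a bacterial counterpart, 7, 11 and 20 of 27 tested genes were lower at 0.5, 1.0 and 3.0 Gy, with median changes of -0.36, -0.38 and -0.71. Mrpl32, which is trimmed by the mitochondrial m-AAA protease before it joins the large subunit, had the smallest p of all Mrp genes at each dose. Its log2 level was 7.35, 6.53, 6.86, 7.54 and 7.37 in the 5 controls, then 6.05, 6.24, 6.35 and 6.09 at 0.5 Gy, 5.79, 5.83, 5.98 and 5.83 at 1.0 Gy and 5.52, 5.45, 5.52 and 5.58 at 3.0 Gy. The 4 groups did not overlap, each dose lying wholly below the one before. Mrpl32 fell by 0.95 ± 0.16 (SE; adjusted p = 0.000501), 1.27 ± 0.16 (adjusted p = 8.03e-06) and 1.61 ± 0.16 (adjusted p = 1.70e-07), the last a 3.06-fold fall. The difference between 3.0 and 0.5 Gy was called (-0.66 ± 0.17, adjusted p = 0.00474), and those of neighbouring doses were not (adjusted p = 0.107 for 3.0 against 1.0 Gy).

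Mrpl2, a core protein near the site of peptide bond formation, stood at 6.55, 6.23, 6.30, 6.60 and 6.45 in controls, 5.88, 6.02, 5.72 and 5.86 at 0.5 Gy, 5.91, 6.05, 5.59 and 5.81 at 1.0 Gy and 5.83, 5.61, 5.54 and 5.66 at 3.0 Gy. All 12 irradiated arrays lay below all controls and the 3 doses overlapped one another. Mrpl2 fell by 0.55 ± 0.11 (SE; adjusted p = 0.00338), 0.58 ± 0.11 (adjusted p = 0.00105) and 0.77 ± 0.11 (adjusted p = 1.71e-05). With the 18S level as a covariate the changes at 0.5 and 1.0 Gy were larger in size, -0.71 and -0.78, and were not called (adjusted p = 0.120 and 0.163).

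Mrpl3, another core protein with a bacterial counterpart, changed at the highest dose. Its levels were 5.96, 5.12, 5.49, 5.74 and 5.15 in controls, 4.99, 5.56, 4.97 and 5.11 at 0.5 Gy, 5.40, 5.11, 5.01 and 5.25 at 1.0 Gy and 4.18, 4.14, 3.32 and 3.65 at 3.0 Gy. The 0.5 and 1.0 Gy arrays overlapped the controls, and the 3.0 Gy arrays lay below all others. The changes at the lower doses were -0.33 ± 0.20 (adjusted p = 0.352) and -0.30 ± 0.20 (adjusted p = 0.340). Mrpl3 fell by 1.67 ± 0.20 at 3.0 Gy (adjusted p = 1.24e-06) and by 1.37 ± 0.21 from 1.0 to 3.0 Gy (adjusted p = 8.28e-05). On the 2 other probe sets of Mrpl3 that passed the filter, both dimmer, the change at 3.0 Gy was -0.35 ± 0.12 (adjusted p = 0.0239) and 0.30 ± 0.13 (adjusted p = 0.0612), so the size and sign differed between probe sets. The mean over the probe sets of the gene gave -0.45.

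Mrpl33 was called lower at the lower doses only. It stood at 6.40, 5.89, 6.48, 6.73 and 6.31 in controls, 5.40, 6.00, 5.57 and 5.66 at 0.5 Gy, 5.72, 5.88, 5.71 and 5.49 at 1.0 Gy and 6.41, 5.97, 5.89 and 6.19 at 3.0 Gy. The 1.0 Gy arrays lay below all controls, while the 3.0 Gy arrays lay above all 1.0 Gy arrays and overlapped the controls. Mrpl33 fell by 0.70 ± 0.16 at 0.5 Gy (adjusted p = 0.00652) and by 0.66 ± 0.16 at 1.0 Gy (adjusted p = 0.00556). At 3.0 Gy its change from control was -0.25 ± 0.16 (adjusted p = 0.201), and -0.36 and called without control replicate 2 (adjusted p = 0.0481). It was the only Mrp gene called higher at 3.0 than at 0.5 Gy (0.46 ± 0.17, adjusted p = 0.0395). That call was lost without 0.5 Gy replicate 1, 3 or 4 or 3.0 Gy replicate 1 or 4, with an adjusted p of up to 0.127, and repeated quantile normalization called 8 Mrp genes higher in that comparison in place of 1.

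The proteins of the stalk that receives translation factors were not uniform. Mrpl12, which also binds the mitochondrial RNA polymerase, fell by 0.67 ± 0.21 at 0.5 Gy (adjusted p = 0.0466) and by 1.25 ± 0.21 at 3.0 Gy (adjusted p = 5.68e-05); the first call was lost without any of 12 arrays (adjusted p up to 0.149). Its stalk partner Mrpl11 fell at 3.0 Gy (-0.75 ± 0.16, adjusted p = 0.000824), and Mrpl10, named here as the remaining stalk protein, was not called at any dose, with changes of -0.18, -0.17 and -0.17. Near the exit tunnel, Mrpl23 fell by 0.74, 0.82 and 1.53 at the 3 doses and Mrpl24 by 0.58 and 1.41 at 1.0 and 3.0 Gy (adjusted p from 3.93e-06 to 0.0485).

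Among mitochondria-specific large-subunit proteins, 7, 7 and 17 of 21 genes were lower at the 3 doses, with median changes of -0.42, -0.42 and -0.78. Mrpl41 stood at 6.84, 6.26, 6.79, 7.17 and 6.57 in controls, 5.90, 5.95, 5.95 and 5.93 at 0.5 Gy, 5.71, 5.95, 5.68 and 5.72 at 1.0 Gy and 5.63, 5.65, 5.82 and 5.33 at 3.0 Gy. Every irradiated array lay below every control. Mrpl41 fell by 0.79 ± 0.14 (SE; adjusted p = 0.00119), 0.96 ± 0.14 (adjusted p = 7.17e-05) and 1.12 ± 0.14 (adjusted p = 3.49e-06), and no difference between doses was called. With the 18S level as a covariate its changes at 0.5 and 1.0 Gy were -1.04 and -1.28, larger in size, and were not called (adjusted p = 0.0614 and 0.0568).

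Mrpl57 stood at 7.24, 6.75, 7.33, 7.53 and 7.45 in controls, 6.47, 6.73, 6.65 and 6.65 at 0.5 Gy, 6.23, 6.47, 6.50 and 6.52 at 1.0 Gy and 6.67, 6.39, 6.70 and 6.48 at 3.0 Gy. All irradiated arrays lay below all controls, with control replicate 2 nearest to them, and the doses overlapped. Mrpl57 fell by 0.64 ± 0.14 (adjusted p = 0.00488), 0.83 ± 0.14 (adjusted p = 0.000190) and 0.70 ± 0.14 (adjusted p = 0.000303).

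Mrpl39 stood at 6.66, 6.28, 6.39, 6.67 and 6.25 in controls, 6.26, 6.62, 6.26 and 6.28 at 0.5 Gy, 6.53, 6.48, 6.03 and 6.36 at 1.0 Gy and 5.34, 5.89, 4.96 and 4.79 at 3.0 Gy. The lower doses overlapped the controls and the 3.0 Gy arrays lay below all others. Mrpl39 fell by 1.20 ± 0.18 at 3.0 Gy against controls (adjusted p = 1.96e-05) and by 1.10 ± 0.19 against 1.0 Gy (adjusted p = 0.000284). Its changes at 0.5 and 1.0 Gy were -0.10 and -0.10 (adjusted p = 0.832 and 0.768).

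Other mitochondria-specific proteins of the large subunit also fell at 3.0 Gy. Mrpl58, a peptidyl-tRNA hydrolase that frees stalled ribosomes, fell by 1.58 ± 0.23 (adjusted p = 1.46e-05). Mrps30, which sits in the large subunit despite its symbol, fell by 1.5 ± 0.20 (adjusted p = 5.40e-06). Mrpl45, which helps to hold the ribosome at the inner membrane, fell by 0.84 ± 0.14 (adjusted p = 5.33e-05), and Mrpl44, which has a ribonuclease III-like fold, by 0.60 ± 0.10 (adjusted p = 8.61e-05). None of these 4 was called at 0.5 or 1.0 Gy.

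**Figure D4:**
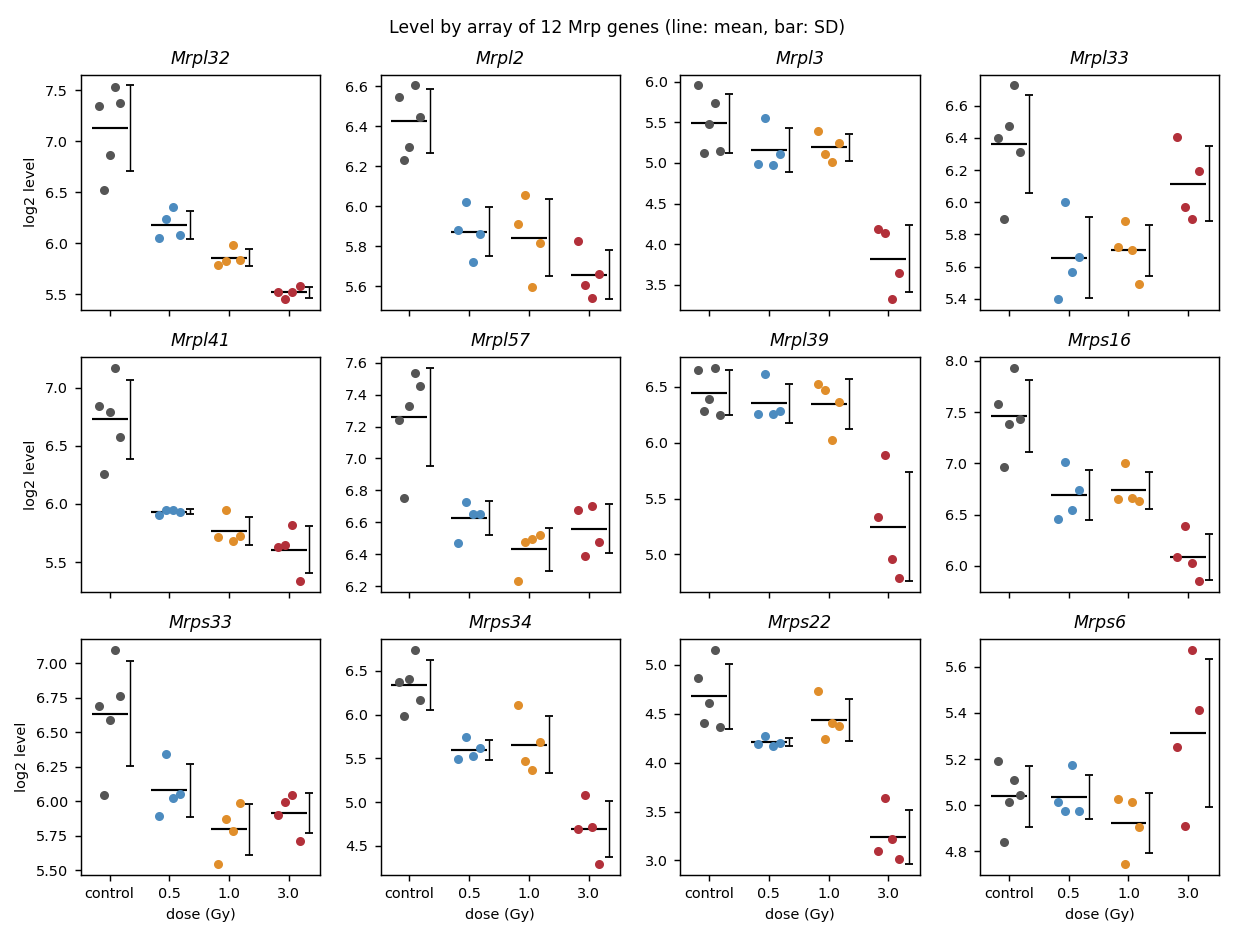
Log2 level by array (vertical axis, a separate scale for each gene) against dose in Gy for 12 Mrp genes; points are mice, horizontal lines group means and bars the SD, with 5 controls and 4 mice per dose. Mrpl32, Mrpl2, Mrpl41 and Mrpl57 lie below every control at all 3 doses, Mrpl3, Mrpl39 and Mrps22 drop mainly at 3.0 Gy, Mrpl33 overlaps the controls at 3.0 Gy, and Mrps6 overlaps the controls throughout.

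Among small-subunit proteins with a bacterial counterpart, 3, 5 and 12 of 17 genes were lower at the 3 doses, with median changes of -0.23, -0.22 and -0.67. Mrps16 stood at 7.58, 6.96, 7.39, 7.93 and 7.44 in controls, 6.46, 7.01, 6.55 and 6.74 at 0.5 Gy, 6.65, 7.0, 6.66 and 6.63 at 1.0 Gy and 6.08, 6.38, 6.03 and 5.85 at 3.0 Gy. A single array at each of 0.5 and 1.0 Gy lay above the lowest control, and the 3.0 Gy arrays lay below all others. Mrps16 fell by 0.77 ± 0.17 (adjusted p = 0.00499), 0.72 ± 0.17 (adjusted p = 0.00413) and 1.37 ± 0.17 (adjusted p = 1.80e-06). Mrps14 and Mrps17 fell by 1.22 and 1.63 at 3.0 Gy (adjusted p = 6.47e-06 and 3.25e-06), and Mrps12, which lies at the decoding centre, by 0.83 (adjusted p = 0.000143).

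Mrps6 and Mrps5 were the only Mrp genes called higher at 3.0 than at 1.0 Gy, and neither was called against controls. Under repeated quantile normalization 13 Mrp genes were called higher in that comparison, and Mrps6 was called higher than in controls at 3.0 Gy (0.44, adjusted p = 0.0131), as it was without 3.0 Gy replicate 2 (0.41, adjusted p = 0.00828). Mrps6 stood at 5.19, 4.84, 5.01, 5.11 and 5.04 in controls, 5.01, 4.98, 5.17 and 4.98 at 0.5 Gy, 5.03, 4.75, 5.01 and 4.91 at 1.0 Gy and 5.25, 4.91, 5.67 and 5.41 at 3.0 Gy. Mrps5 stood at 4.19, 3.91, 4.02, 4.04 and 3.96 in controls, 4.27, 3.96, 3.84 and 3.78 at 0.5 Gy, 3.85, 3.96, 3.90 and 3.79 at 1.0 Gy and 3.96, 4.16, 4.35 and 4.23 at 3.0 Gy. Groups overlapped in Mrps6 at every dose, and in Mrps5 the 3.0 and 1.0 Gy arrays only touched. From 1.0 to 3.0 Gy the difference was 0.39 ± 0.14 for Mrps6 (adjusted p = 0.0301) and 0.30 ± 0.12 for Mrps5 (adjusted p = 0.0494). The call of Mrps6 was lost without 1.0 Gy replicate 2 or 4 or 3.0 Gy replicate 3 or 4, with an adjusted p of up to 0.118. That of Mrps5 was lost without any of 14 of the 17 arrays (adjusted p up to 0.142). Another probe set of Mrps5, dimmer on average, fell by 0.38, 0.37 and 0.51 at the 3 doses (adjusted p = 0.0409, 0.0284 and 0.00107 over all probe sets tested).

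Among mitochondria-specific small-subunit proteins, 4, 4 and 6 of 8 genes were lower, with median changes of -0.49, -0.38 and -0.78. Mrps34, a protein tied to the stability of the small subunit, stood at 6.37, 5.98, 6.41, 6.74 and 6.16 in controls, 5.49, 5.74, 5.53 and 5.62 at 0.5 Gy, 6.11, 5.47, 5.37 and 5.69 at 1.0 Gy and 4.70, 5.08, 4.72 and 4.30 at 3.0 Gy. Only 1 array, at 1.0 Gy, reached the control range, and the 3.0 Gy arrays lay below all others. Mrps34 fell by 0.74 ± 0.17 (adjusted p = 0.00868), 0.68 ± 0.17 (adjusted p = 0.00886) and 1.64 ± 0.17 (adjusted p = 3.73e-07), a 3.11-fold fall at 3.0 Gy. The changes at 0.5 and 1.0 Gy with the 18S level as a covariate were -0.94 and -0.94, larger in size, and were not called (adjusted p = 0.181 and 0.305).

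Mrps33 stood at 6.69, 6.04, 6.59, 7.10 and 6.76 in controls, 5.90, 6.35, 6.02 and 6.06 at 0.5 Gy, 5.55, 5.87, 5.79 and 5.99 at 1.0 Gy and 5.90, 5.99, 6.04 and 5.72 at 3.0 Gy. The 1.0 Gy arrays lay below all controls, while 2 arrays at 0.5 Gy and 1 at 3.0 Gy reached the lowest control. Mrps33 fell by 0.56 ± 0.16 (adjusted p = 0.0328), 0.84 ± 0.16 (adjusted p = 0.000937) and 0.72 ± 0.16 (adjusted p = 0.00110). The call at 0.5 Gy was lost without any one of 4 controls (all but replicate 2) or 0.5 Gy replicate 1, 3 or 4 (adjusted p up to 0.120).

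Mrps22, whose human counterpart is mutated in a mitochondrial disease of infancy, was dim. It stood at 4.87, 4.41, 4.62, 5.15 and 4.36 in controls, 4.19, 4.27, 4.17 and 4.20 at 0.5 Gy, 4.73, 4.24, 4.40 and 4.37 at 1.0 Gy and 3.10, 3.64, 3.22 and 3.01 at 3.0 Gy. The 3.0 Gy arrays lay below all others, and the 0.5 Gy arrays below the controls without a call (-0.47 ± 0.16, adjusted p = 0.0671). With control replicate 2, control replicate 5 or 3.0 Gy replicate 2 left out, the 0.5 Gy change passed (adjusted p = 0.0351, 0.0376 and 0.0393). Mrps22 fell by 1.44 ± 0.16 at 3.0 Gy (adjusted p = 6.12e-07) and by 1.20 ± 0.17 from 1.0 to 3.0 Gy (adjusted p = 4.66e-05).

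Mrps36 carries a small-subunit symbol but belongs to the oxoglutarate dehydrogenase complex of the citric acid cycle. It fell by 0.39 ± 0.11 at 1.0 Gy (adjusted p = 0.0161), and its changes at 0.5 and 3.0 Gy were -0.22 and -0.11 (adjusted p = 0.243 and 0.426). The 3 paralogues of bacterial S18 all fell at 3.0 Gy: Mrps18a, in the large subunit, by 0.94, Mrps18b by 0.82 and Mrps18c by 0.82 (adjusted p = 0.000153, 8.15e-05 and 0.000712).

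The doses were also compared with one another. Between 1.0 and 0.5 Gy limma called 0 Mrp genes, and 0 had an unadjusted p under 0.05; over all tested genes 0.0158% were lower and 0% higher, with 735 at an unadjusted p under 0.05. From 1.0 to 3.0 Gy, 28 Mrp genes were lower and 2 higher, where 22.7% of all tested genes were lower and 15.9% higher, and the median change was -0.33 against 0.06. Repeated quantile normalization gave 25 Mrp genes lower and 13 higher with a median of -0.18, while 19.5% of all tested genes were lower and 27.7% higher with a median of 0.14. From 0.5 to 3.0 Gy, 28 were lower and 1 higher, where 20.9% of all tested genes were lower and 12.9% higher, and the median change was -0.32 against 0.05. Repeated quantile normalization gave 24 lower and 8 higher with a median of -0.15, while 19.1% of all tested genes were lower and 22.5% higher. The share of Mrp genes lower at 3.0 than at 1.0 Gy (37.8%) was thus nearer to that of all tested genes than in the comparisons with controls. These counts rest on the brightest probe set of each gene, and those of the further probe sets are given below. With the 18S level as a covariate 0 Mrp genes were called in either comparison, but 0% of all tested genes were called from 1.0 to 3.0 Gy and 0.685% were lower from 0.5 to 3.0 Gy, so that fit does not set the Mrp genes apart. Their median change from 1.0 to 3.0 Gy was then 0.087. The order of the 4 group means was control, 1.0, 0.5 and 3.0 Gy from high to low in 27 genes, and control, 0.5, 1.0 and 3.0 Gy in 23.

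Markers of several blood cell types changed in the same comparisons. Over all tested genes, 5.0%, 8.49% and 29.2% were lower and 5.24%, 8.80% and 20.0% higher at 0.5, 1.0 and 3.0 Gy. Of 12 B cell markers, 1, 1 and 11 were lower than in controls at the 3 doses, and of 12 T cell markers 2, 4 and 9. From 1.0 to 3.0 Gy the median change was -2.37 for the B cell markers and -0.90 for the T cell markers. All 16 platelet markers were higher at every dose, with median changes of 1.06, 1.53 and 1.87, and of 14 red cell markers 4, 5 and 8 were lower and 0, 0 and 3 higher. Of 11 markers of NK and cytotoxic cells 1, 1 and 3 were lower and 0, 2 and 0 higher. Of 10 neutrophil markers 0, 1 and 0 were lower and 0, 0 and 6 higher, with a median change of 0.87 at 3.0 Gy, and of 10 monocyte markers 2, 1 and 5 were lower and 1, 1 and 1 higher. The part of these cell types in the change of the Mrp genes was not tested.

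In controls the highest mean levels were those of Mrps24 (7.79 ± 0.24, SD, n = 5), Mrps16 (7.46 ± 0.35) and Mrpl15 (7.39 ± 0.08), and the lowest those of Mrpl1 (3.06), Mrps27 (3.42) and Mrps10 (3.57). Levels of different probe sets are not on a common scale, so this order describes signal and not the number of transcripts. Mrps24 fell at 1.0 Gy (-0.50 ± 0.12, adjusted p = 0.00741) and 3.0 Gy (-0.34 ± 0.12, adjusted p = 0.0318), and Mrpl15 fell at 3.0 Gy (-0.49 ± 0.12, adjusted p = 0.00257).

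Among the members, 42 had further probe sets. Of these, 48 probe sets of 31 genes passed the same filter, and 7, 8 and 24 were lower and 0, 0 and 3 higher at the 3 doses. Over all 20445 probe sets tested, 4.43%, 7.89% and 28.7% were lower. At 0.5 Gy, 4 of the 48 belonged to genes called lower, and 4 of the 4 had the same sign, 0 of them called. At 1.0 Gy, 8 of the 48 did, and 7 of the 8 had the same sign, 2 of them called. At 3.0 Gy, 36 of the 48 belonged to genes called lower, and 26 of the 36 had the same sign, 21 of them called, while 1, of Mrps26, was called higher. From 1.0 to 3.0 Gy, 11 of the 48 were lower and 3 higher, where 22.9% of all probe sets tested were lower and 14.5% higher. Their median change was -0.02, and 17 of the 28 that belonged to called genes had the same sign. From 0.5 to 3.0 Gy, 6 were lower and 2 higher, where 21.1% of all were lower and 12.4% higher. Their median change was -0.08, and 11 of the 18 that belonged to called genes had the same sign. Mrpl17, named here after its values were seen, was not called on its brightest probe set (0.24 ± 0.15 at 3.0 Gy, adjusted p = 0.184), and its next one fell by 0.42 at 1.0 Gy and by 0.38 at 3.0 Gy (adjusted p = 0.00611 and 0.00435). Mrpl19 fell by 1.11 at 3.0 Gy on its brightest probe set and by 1.39 on another (adjusted p = 3.60e-06), whereas a further one gave 0.29 (adjusted p = 0.0541).

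The promoters of the members showed letters that the choice of genes by symbol did not use. RefSeq promoter sequences of GRCm38.p6, from 250 bases before to 50 bases after each gene's start, matched 67 of the 76 genes, with 73 promoters. They were searched on both strands for GCGCATGC, the core of the site of the nuclear respiratory factor NRF1, for CCGGAAG, the core read by ETS factors such as GABP, for AAGATGGC, the site of YY1, and for the E-box CACGTG. GCGCATGC lay in 11% of the Mrp promoters and 2.71% of all 32851 promoters, CCGGAAG in 34.2% and 8.86%, AAGATGGC in 16.4% and 2.75%, and CACGTG in 9.59% and 7.15%. All promoters belong to 27025 genes, including genes not tested here. Shares over the tested genes alone were not counted, so these values do not make the letters particular to the Mrp genes. Every one of the overlapping promoters of Mrpl2 counted the same CACGTG, so the Mrp share of CACGTG is raised by repeated counts of 1 gene. TATAAA, also searched, lay in 6.85% and 13.6%. At least 1 of the first 3 lay in 52.0% of the 50 promoters of genes lower at 3.0 Gy and in 47.6% of the 21 promoters of tested genes not called there. These shares count promoters, of 47 and 18 genes. Genes with several promoters, such as Mrpl48, weigh more in them, so no difference is drawn from them. A match is a description of letters and neither a bound site nor a cause.

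The 150 bases before the start are shown for 5 genes whose values are given above, because they share these letters and differ in their course over dose: Mrpl32 fell at every dose, Mrpl33 at the lower doses, and Mrpl39, Mrpl3 and Mrps22 mainly at 3.0 Gy. They lie on GRCm38.p6 with Mrpl32 at chr13:14613038-14613187 (minus strand), Mrpl33 at chr5:31613801-31613950 (plus strand), Mrpl39 at chr16:84735245-84735394 (minus strand), Mrpl3 at chr9:105053118-105053267 (plus strand) and Mrps22 at chr9:98601680-98601829 (minus strand). Each is written 5′ to 3′ on the gene's own strand, with NRF1 cores in capitals in the first 3 and the ETS core in capitals in the last 2.
Mrpl32: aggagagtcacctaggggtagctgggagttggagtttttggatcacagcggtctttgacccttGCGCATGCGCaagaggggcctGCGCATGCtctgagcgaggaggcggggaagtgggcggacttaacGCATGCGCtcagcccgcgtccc
Mrpl33: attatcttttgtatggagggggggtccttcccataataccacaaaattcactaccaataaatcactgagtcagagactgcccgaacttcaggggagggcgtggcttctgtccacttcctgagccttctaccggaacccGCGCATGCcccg
Mrpl39: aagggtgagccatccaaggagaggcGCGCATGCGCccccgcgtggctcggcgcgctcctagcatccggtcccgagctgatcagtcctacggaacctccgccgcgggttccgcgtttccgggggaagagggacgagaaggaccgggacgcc
Mrpl3: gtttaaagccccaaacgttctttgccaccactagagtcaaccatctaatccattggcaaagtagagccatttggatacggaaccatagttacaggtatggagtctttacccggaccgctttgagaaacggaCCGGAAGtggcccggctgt
Mrps22: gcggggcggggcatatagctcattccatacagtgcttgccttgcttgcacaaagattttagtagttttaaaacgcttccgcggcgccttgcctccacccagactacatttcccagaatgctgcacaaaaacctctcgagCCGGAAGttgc

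The NRF1 core occurred in 3 separate stretches before Mrpl32, the nearest 22 bases from the start, and in 1 stretch before each of Mrpl33 and Mrpl39; the window of Mrpl33 also held an ETS core across its start, which is not shown. The ETS core lay 19 bases before the start of Mrpl3 and 11 bases before that of Mrps22. Of the factors, named here after their values were seen, the array value of Nrf1 changed by -0.38 ± 0.12 at 3.0 Gy (adjusted p = 0.0117) and that of Gabpa, the ETS subunit of GABP, by -1.03 ± 0.16 (adjusted p = 2.63e-05), and neither was called at 0.5 or 1.0 Gy. At 3.0 Gy 29.2% of all tested genes were lower. No values are given here for YY1, other ETS factors or E-box factors. A link between these factors and the Mrp genes was not tested.

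Ribosomal subunits named otherwise and genes that serve the mitochondrial ribosome were read beside the Mrp genes. Over all tested genes, 5.0%, 8.49% and 29.2% were lower at 0.5, 1.0 and 3.0 Gy. All 4 subunits of other name were lower at 3.0 Gy, 2 of them also at 1.0 Gy. The smallest p-values were those of Chchd1 of the small subunit (-1.70 ± 0.22, adjusted p = 3.68e-06) and Ptcd3, also of the small subunit (-0.90 ± 0.14, adjusted p = 2.67e-05). Of 25 genes of ribosome assembly and ribosomal RNA modification, 0, 3 and 11 were lower at the 3 doses. The RNA helicase Dhx30 fell by 1.42 ± 0.17 and Fastkd2, which binds the large ribosomal RNA, by 1.18 ± 0.15 at 3.0 Gy (adjusted p = 1.83e-06 and 3.08e-06).

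Of 12 mitochondrial translation factors, 1, 2 and 7 were lower and 0, 0 and 1 higher. The peptide deformylase Pdf fell at all 3 doses (-1.25 ± 0.16 at 3.0 Gy, adjusted p = 4.69e-06) and the initiation factor Mtif2 at 3.0 Gy (-0.96 ± 0.18, adjusted p = 0.000186), while Mrrf, the ribosome recycling factor, rose at 3.0 Gy (0.46 ± 0.12, adjusted p = 0.00360). Of 13 mitochondrial aminoacyl-tRNA synthetases, which charge the transfer RNAs, 0, 1 and 3 were lower. These counts did not exceed the shares of all tested genes, 5.0%, 8.49% and 29.2%. At 3.0 Gy Cars2 changed by -0.75 ± 0.15 and Hars2 by -0.43 ± 0.13 (adjusted p = 0.000344 and 0.0108). Of 19 genes of mitochondrial genome expression, 2, 4 and 13 were lower, with the smallest p-values at 3.0 Gy for Tfam, which packages and transcribes mitochondrial DNA (-1.79 ± 0.20, adjusted p = 6.62e-07), and Ssbp1, the mitochondrial single-strand DNA-binding protein (-2.03 ± 0.23, adjusted p = 9.15e-07).

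Counts in 2 larger groups stood beside these, with 5.0%, 8.49% and 29.2% of all tested genes lower at the 3 doses. Of 47 cytosolic ribosomal protein genes 33, 37 and 39 were lower and 0, 0 and 1 higher at the 3 doses, with median changes of -0.65, -0.73 and -1.24. Of 75 respiratory chain and ATP synthase genes 32, 36 and 47 were lower and 0, 1 and 5 higher, with median changes of -0.42, -0.46 and -0.54. Between 1.0 and 3.0 Gy, 23 respiratory chain genes were lower and 17 higher, whereas 28 Mrp genes were lower and 2 higher. The difference between these groups was not tested.

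**Figure D5:**
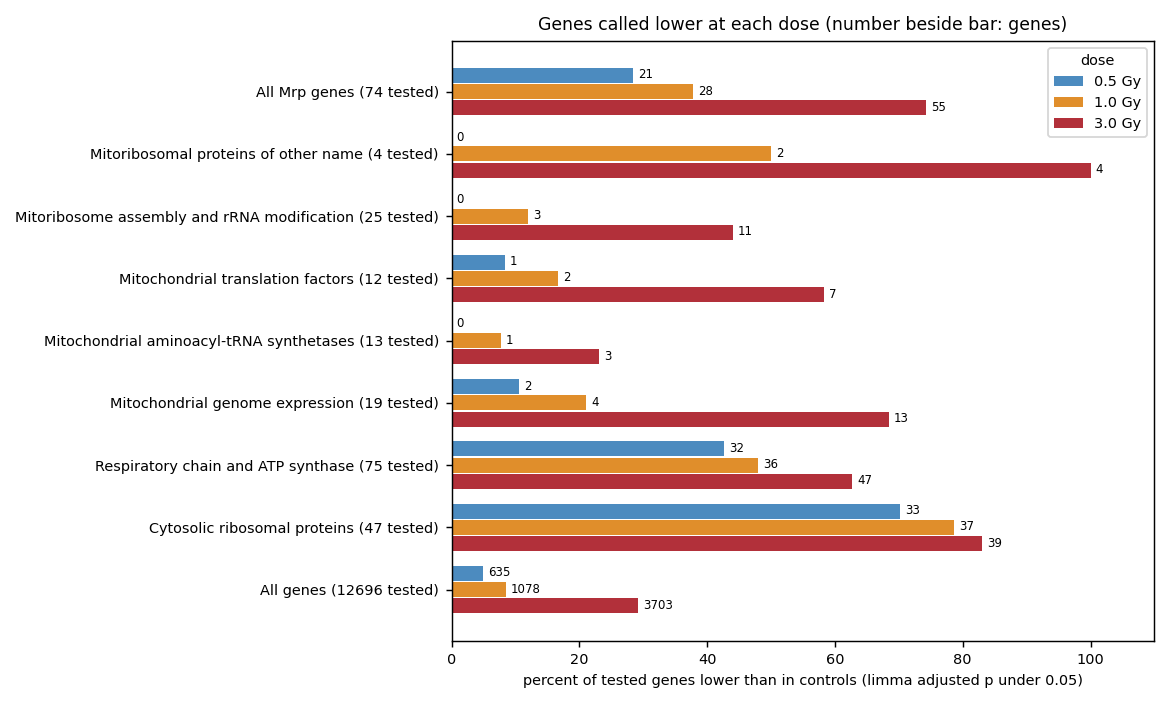
Percent of the tested genes of each group called lower than in controls (limma adjusted p under 0.05, horizontal axis from 0) at 0.5, 1.0 and 3.0 Gy, with the number of genes beside each bar. The Mrp genes stand at 21, 28 and 55 of 74, the cytosolic ribosomal protein genes at 33, 37 and 39 of 47, and all tested genes at 635, 1078 and 3703 of 12696.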

How the data were processed

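The authors deposited log2 values of 45101 probe sets for 17 arrays. The submitters' processing notes name RMA, which adjusts background, equalises intensity distributions and summarises probes, and R 3.3.2; no source used here gives further settings. Because RMA equalises the arrays, a change shared by most transcripts is partly removed, and changes of dim probe sets are understated. Precision is limited by 5 control arrays and 4 per dose.

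Of the probe sets, 34945 had 1 symbol and 932 had several, which were left out. A gene was kept if it lay above the 50th percentile of its array in at least 4 arrays. Group means were fitted over all 17 arrays with limma 3.58.1 in R 4.3.3 (lmFit, eBayes), with Benjamini-Hochberg adjustment over 12696 genes and a threshold of 0.05. Further probe sets were fitted in the same way over all single-symbol probe sets. The script was tested on simulated data. All Mrp symbols matched the current gene table.

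Every Mrp gene called in a comparison could be named; values by array were given for the 5 called genes with the smallest p per dose against control and the 3 per comparison of doses, in each direction. The genes, lists and tests were chosen with earlier results of these data known. The alternatives covered the filter, the probe set per gene, the normalization, the variance model, the arrays used, the replicate block and the 18S level. Protein sequences were not used here, and genome coordinates are those of the promoter table alone.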

Additional observations from a re-analysis of the deposited data

Results flagged for a closer look

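Over the Mrp values given by array, 56 groups of 4 or 5 arrays were examined, and in 4 the highest or lowest array stood apart, its gap to the nearest neighbour, as a share of the group's range, being above Dixon's critical value for a group of that size. Chance flags about 1 in 20 groups. In Mrpl39 at 0.5 Gy, replicate 2 was high (6.62, the next 6.28; gap 0.936 of the range). In Mrpl41 at 1.0 Gy, replicate 2 was high (5.95, the next 5.72; gap 0.842 of the range). In Mrpl57 at 1.0 Gy, replicate 1 was low (6.23, the next 6.47; gap 0.843 of the range). In Mrps16 at 1.0 Gy, replicate 2 was high (7.0, the next 6.66; gap 0.909 of the range).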

How the results depend on the processing

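The count of Mrp genes lower at 3.0 Gy lay between 46 and 58 under all 26 alternatives, and 0 genes were called higher at 0.5 or 1.0 Gy, or different between 1.0 and 0.5 Gy, under any of them. The share of all tested genes lower at 3.0 Gy ran from 21% with no filter to 39% with the filter at the 75th percentile. Leaving out 1 array gave 8 to 32 genes lower at 0.5 Gy, 19 to 35 at 1.0 Gy and 53 to 58 at 3.0 Gy. Of all tested genes, 2.16% to 7.31%, 6.06% to 9.96% and 26.4% to 29.7% were then lower. Those fits gave 0 to 2 Mrp genes higher at 3.0 Gy, 0 to 3 higher from 1.0 to 3.0 Gy and 0 to 3 higher from 0.5 to 3.0 Gy. With the 18S level as a covariate, 13 genes were lower at 0.5 Gy and 13 at 1.0 Gy, and the median changes were -0.71 and -0.74. In that fit 0 genes were lower or higher from 1.0 or 0.5 to 3.0 Gy, and the median changes were 0.087, a reversed sign, and -0.0013; the cause was not tested. The mean of all probe sets gave a median of -0.50 and 1 gene higher at 3.0 Gy, and 2 higher from 0.5 to 3.0 Gy. Repeated quantile normalization gave 3 genes higher at 3.0 Gy, 13 from 1.0 Gy and 8 from 0.5 Gy, with medians of -0.18 and -0.15 for those between doses; of all tested genes 29.1%, 27.7% and 22.5% were then higher. From 1.0 to 3.0 Gy, 1 gene was higher with no filter, with the filter at the 75th percentile, without _x_at and _s_at probe sets, or with only the 2 groups compared. With the replicate number as a block, 15, 24 and 54 genes were lower than in controls at the 3 doses, 8 of 21, 5 of 28 and 2 of 55 calls being lost. Of all tested genes 4.17%, 7.46% and 29.8% were lower in the block fit. In that fit 1 gene was higher from 1.0 to 3.0 Gy and 0 from 0.5 to 3.0 Gy. The labels do not state whether the numbers pair mice, and correlations between arrays did not settle it. Over 24 same-numbered pairs the deviations from the group means correlated at a median of 0.067 (from -0.45 to 0.49), and 11 pairs were over 0.1. Over 84 pairs of different number the median was -0.025 (from -0.63 to 0.61), and 29 pairs were over 0.1. Of the values of single genes under the alternatives, 984 of 1005 kept their side of the threshold, 15 lost and 6 gained a call, and 0 called values reversed. The arrays give no counts, so the number of arrays and the signal of dim probe sets set the precision.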
